A study of Mus musculus with 6 samples.

Results

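Cholesterol synthesis genes and the genes of the SREBP system that controls them were followed in C2C12 cells after depletion of H19. The set was given as 28 gene symbols, and its members were the probe sets annotated with exactly 1 of these symbols. Of the 28 genes 26 had such a probe set, among 19938 genes with 1 symbol on the array. Acat2 was not analysed here, and Mbtps2 was represented only by a probe set that it shares with Yy2. Where a gene had several probe sets, the one with the highest mean over the 6 arrays stood for it.

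C2C12 is an established mouse myoblast line that fuses into myotubes when serum is lowered. Cells were grown in 10% fetal bovine serum and moved to 2% horse serum at about 90% density. On day 1 of differentiation they received either a control siRNA (siCon) or an siRNA against mouse H19 (simH19), and total RNA was taken 40 h later. There were 3 Affymetrix arrays per group, all of wild type C2C12 cells, with the same differentiation medium in both groups. The labels name 1 siRNA per group and 1 cell line, and no arrays of untransfected cells were analysed here. The labels do not say whether the 3 samples of a group were separate cultures, so the p-values reflect spread among samples that could be purely technical. Fewer cells of a type and less RNA per cell cannot be told apart in such bulk samples.

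Cholesterol is built from acetyl-CoA through mevalonate, isoprenoid diphosphates, squalene and lanosterol. When membrane sterols fall, the escort protein SCAP carries the SREBP transcription factors from the endoplasmic reticulum to the Golgi, where a pair of proteases releases their active part, and INSIG proteins hold the complex back when sterols are high. SREBP2 mainly drives the cholesterol genes and SREBP1 mainly the fatty acid genes, usually together with NF-Y, a factor that binds CCAAT boxes. Myoblasts that fuse remodel their membranes, and the mevalonate pathway also supplies the prenyl groups that anchor small GTPases.

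The promoters of 4 members are shown because their genes mark the range of the results. Hmgcs1 is a classical SREBP target, Srebf2 had the highest and Insig2 the lowest difference between the groups among the 26 genes, and Insig1 is the paralogue of Insig2. Each line gives the 250 bases before the RefSeq start (GRCm38.p6), 5′ to 3′ on the gene's strand. For Insig2, with 3 listed starts, the most upstream one is shown, and its window reaches into the gene's annotated span. Capitals mark matches to TCACNCCAC (the core of a sterol regulatory element), to its shorter run TCACCCCA, to CCAAT and to the E-box CACGTG, each read on both strands.
Hmgcs1: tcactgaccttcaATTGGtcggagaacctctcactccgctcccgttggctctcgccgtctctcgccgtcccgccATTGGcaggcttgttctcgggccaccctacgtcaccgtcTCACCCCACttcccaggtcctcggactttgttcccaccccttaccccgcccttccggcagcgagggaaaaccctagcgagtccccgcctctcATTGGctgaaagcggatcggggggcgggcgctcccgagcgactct
Srebf2: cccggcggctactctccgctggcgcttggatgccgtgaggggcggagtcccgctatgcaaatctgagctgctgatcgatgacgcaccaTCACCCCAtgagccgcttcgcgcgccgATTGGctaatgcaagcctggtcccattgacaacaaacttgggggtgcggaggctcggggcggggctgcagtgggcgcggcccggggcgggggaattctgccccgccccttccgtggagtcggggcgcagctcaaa
Insig1: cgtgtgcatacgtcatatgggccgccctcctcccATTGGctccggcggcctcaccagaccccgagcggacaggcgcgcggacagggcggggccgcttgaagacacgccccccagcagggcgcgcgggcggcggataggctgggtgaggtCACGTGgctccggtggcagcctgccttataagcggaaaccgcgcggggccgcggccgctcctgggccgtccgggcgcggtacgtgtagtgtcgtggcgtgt
Insig2: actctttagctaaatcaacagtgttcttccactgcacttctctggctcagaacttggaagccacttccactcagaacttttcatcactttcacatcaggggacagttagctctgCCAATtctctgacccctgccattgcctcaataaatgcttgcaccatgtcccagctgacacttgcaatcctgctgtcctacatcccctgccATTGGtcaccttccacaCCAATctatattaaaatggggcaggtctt
The windows lie at chr13:119690101-119690350 (plus strand) for Hmgcs1, chr15:82147019-82147268 (plus strand) for Srebf2, chr5:28071162-28071411 (plus strand) for Insig1 and chr1:121332590-121332839 (minus strand) for Insig2.

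The windows differed in what they hold. The element TCACNCCAC was found in Hmgcs1 alone of the 22 members with a window in the table, against 1.03% of all 27025 genes. Srebf2 holds the shorter run TCACCCCA, a motif added after its window had been read, which overlaps the longer one in Hmgcs1 and occurs in 1.26% of all genes. A CCAAT box was present in 19 of the 22 members (86.4%) and in 34.5% of all genes. Members on both sides of the expression results held one, among them Insig2, Lbr and Ggps1, while the windows of Dhcr7, Mbtps1 and Scap held none. Only 1 start per gene was searched, the most upstream of 3 listed for Dhcr7, Srebf1 and Insig2 and of 2 for Scap and Pmvk. Some windows reached into the annotated span of their gene, among them those of Insig2 and Mbtps1, and that of Srebf1 lay wholly inside. The GC box GGGCGG, not marked above, was in 17 of 22 members against 33.0% of all genes, and the E-box in 3 of 22 against 6.04%. The Insig2 window had a G and C content of 47.2% and no GC box, whereas that of Insig1 had 72.8% and 3 GC boxes, with a median of 52.0% over all genes. Most member windows were richer in G and C than that median, up to 73.6% for Lss. Whether the share of members with a GC box follows from this base content was not tested. These matches describe letters in a window and say nothing of binding. Fdft1, Fdps, Sqle and Stard4 are named only.

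The RMA values of the 6 arrays were close to each other. Medians over all rows lay between 6.73 and 6.78 on the log2 scale, Pearson's r between arrays lay between 0.9958 and 0.9975 across probe sets, and H19 siRNA array 2 had the lowest mean r (0.9962). A probe set annotated with both Mir675 and Supt6 stood for the targeted transcript, since Mir675 is hosted by H19 and no probe set carried the symbol H19. That probe set was at 26.9% of its control level with H19 siRNA (limma adjusted p = 1.80e-05). Of 21559 units tested (genes and probe sets with several symbols) 43 had a limma adjusted p under 0.05 (27 higher and 16 lower with H19 siRNA). After centring each array on its median, 36 passed, 19 higher and 17 lower. Leaving out any single array, control or H19 siRNA, moved the count by more than 1.5 times, to between 1 and 21. Of 13 muscle cell markers 12 read above the median unit, among them Myod1, Myog and Des. Of the adipocyte and the macrophage markers 2 of 10 and 2 of 8 lay above it, and of the hepatocyte markers 0 of 7.

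No gene of cholesterol synthesis or SREBP control passed the test, and the differences were small. Of the 26 members 0 had a limma adjusted p under 0.05, against 0.199% of all units (0.125% higher and 0.0742% lower), and the smallest adjusted p was 0.356. At an unadjusted p under 0.05 there were 4, of which Srebf2, Fdps and Fdft1 were higher and Insig2 lower with H19 siRNA. All units gave 10.9% at that level, 6.61% higher and 4.25% lower. The count was 1 (Insig2) after median centring, 0 with the replicate number as a block and without control siRNA array 1 or 2, and 1 and 2 without H19 siRNA arrays 1 and 3. With the mean of a gene's probe sets in place of the brightest one it was 3. A filter at the median unit gave 7 genes. With an intensity trend and robust variance the count was 10, and the smallest limma adjusted p of the 26 genes was then 0.0598. Units with a limma adjusted p under 0.05 rose as well, from 43 to 266 with that filter and 435 with the trend. The share of all units at the unadjusted level was taken in the main fit only. The counts under other settings thus have no share to be read against. The 26 differences lay between -0.11 and 0.10 on the log2 scale, that is from -7.37% to 7.47% relative to the control level. The smallest difference that passed anywhere on the array was 0.26. With a median standard error of 0.04 the 95% intervals of the 26 genes reached at most 1.18-fold upward and at most 12.8% downward. Each interval is for 1 gene alone and reflects only the spread among these samples, which could be purely technical. With 3 arrays on each side, the smallest p of an exact permutation test is 0.1 for any single gene.

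Most members lay slightly above their control level. The difference was positive for 21 of the 26 genes (80.8%) against 58.0% of all units, with a median of 0.05 against 0.01 for all units. Of the units kept by a filter at the median unit, 50.3% were positive. Median centring moved every difference downward by the same amount. The median of the members was 0.0319 after each array was centred on its median, when that of all units was -0.0087 and 44.7% of units, against 19 of the 26 genes, were positive. Groups did not overlap for 14 genes. All 3 H19 siRNA arrays lay above all control arrays for 11, against 10.5% of all units, and below them for 3, against 7.09%. These shares include dim units, whereas 0 of the 26 members were dimmer than the median unit. The median standard error was 0.036 in the members and 0.051 over all units. Shares of separate groups were not taken over bright units alone. Idi1 and Fdft1, among the 11, each had a further probe set whose groups overlapped. After median centring the count above was 2 (Fdps and Fdft1), against 5.51% of all units, and the count below was 4 (Ggps1, Lbr, Insig2 and Mbtps1), against 10.2%. After a second quantile normalisation 9 genes lay above, against 9.05%, and 3 below, against 9.22%, and 21 differences were positive, against 52.3%.

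**Figure D1:**
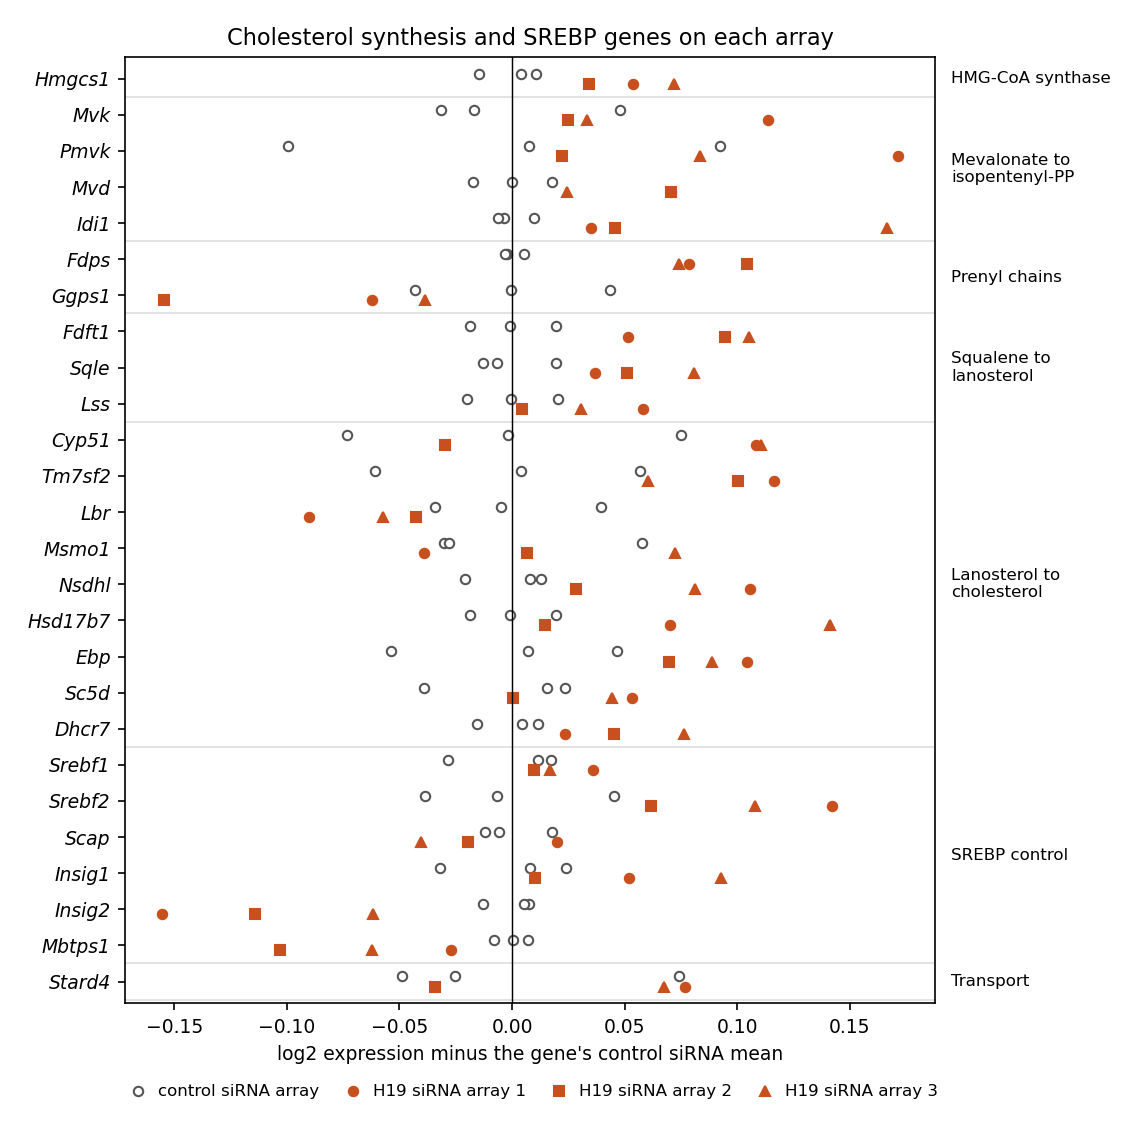
Log2 expression of the 26 genes on each array, given as the difference from the gene's own control siRNA mean, with genes grouped by role. Open circles are the 3 control siRNA arrays and filled symbols the 3 H19 siRNA arrays; most filled symbols lie to the right of 0, while those of Ggps1, Lbr, Insig2 and Mbtps1 lie to the left.

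The SREBP control genes went both ways. Srebf2, which encodes the main activator of cholesterol genes, read 11.80, 11.77 and 11.86 with control siRNA, and 11.95, 11.87 and 11.92 with H19 siRNA (log2). Its groups did not overlap, with the nearest control and H19 siRNA arrays close together, and the difference was 0.10 (SE 0.04, 95% interval 0.01 to 0.20, limma adjusted p = 0.416). After median centring the difference was 0.0815 and the groups overlapped. A further probe set, listed under Srebf2 and 3 other symbols, differed by -0.0076, but it cannot be assigned to Srebf2. Srebf1, whose product mainly serves fatty acid genes, read 9.57, 9.61 and 9.62 against 9.64, 9.61 and 9.62, with a difference of 0.02 that was -0.00149 after median centring, and 0.0066 and 0.0134 without control siRNA array 1 and H19 siRNA array 1. The control and H19 siRNA arrays of Srebf1 were interleaved.

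The paralogues Insig1 and Insig2 lay on opposite sides of their control levels. Insig2, an anchor that retains SCAP in the endoplasmic reticulum, read 11.13, 11.13 and 11.11 with control siRNA. With H19 siRNA it read 10.97, 11.01 and 11.06. All 3 H19 siRNA arrays were below the 3 tightly grouped control arrays, and array 3 was the closest to them. The difference was -0.11 (SE 0.04, 95% interval -0.20 to -0.02, limma adjusted p = 0.356), the smallest p of the 26 genes. It was -0.13 after median centring and lay between -0.13 and -0.09 when single arrays were left out. Insig1, the SREBP-inducible member of the pair, read 11.97, 12.01 and 12.03 against 12.06, 12.02 and 12.10, and its groups overlapped through H19 siRNA array 2. Its difference was 0.05 (95% interval -0.04 to 0.14), or 0.03 both after median centring and without H19 siRNA array 3. The difference between the paralogues was not tested.

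The escort and the proteases were at or below their control levels. Mbtps1, the Golgi protease that makes the first cut in SREBPs, read 11.84, 11.83 and 11.82 with control siRNA and 11.80, 11.73 and 11.77 with H19 siRNA. The groups did not overlap, and the difference was -0.06 (SE 0.03, limma adjusted p = 0.568). Scap read 10.57, 10.58 and 10.60 against 10.60, 10.56 and 10.54, with interleaved arrays and a difference of -0.01 (95% interval -0.09 to 0.07), which was -0.0357 after median centring. Leaving out single arrays took it from -0.0299 without H19 siRNA array 1 through -0.0044 without control siRNA array 3 to 0.000165 without H19 siRNA array 3. The probe set shared by Mbtps2, the protease of the second cut, and Yy2 differed by -0.04 (95% interval -0.13 to 0.05). As a group the 6 measured control genes split into 3 positive and 3 negative differences, with a median of 0.0038.

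The entry into the pathway and the mevalonate steps were slightly above control throughout. Hmgcs1, which joins acetyl-CoA to acetoacetyl-CoA to give HMG-CoA, read 11.56, 11.55 and 11.53 against 11.60, 11.58 and 11.62. Its groups did not overlap although its difference was only 0.05 (SE 0.03, limma adjusted p = 0.607), or 0.0309 after median centring. The 4 enzymes from mevalonate to isopentenyl diphosphate differed by 0.06 to 0.09. Mvk, mevalonate kinase, read 9.77, 9.79 and 9.85 against 9.92, 9.83 and 9.84. Pmvk, the next kinase, had the largest standard error of the 26 genes (0.06), with 8.08, 8.19 and 8.27 against 8.35, 8.20 and 8.26. Both kinases had overlapping groups, and single arrays carried much of their differences. That of Mvk was 0.0291 without H19 siRNA array 1 and 0.0348 after median centring, and that of Pmvk was 0.0425 and 0.0528 without control siRNA array 1 and H19 siRNA array 1. Mvd, the decarboxylase, read 9.53, 9.50 and 9.51 against 9.58, 9.58 and 9.54 without overlap, and its difference was 0.0329 after median centring.

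Idi1, which isomerises isopentenyl diphosphate, had 2 probe sets annotated with the same transcripts. The one with the higher mean read 10.72, 10.71 and 10.71 against 10.75, 10.76 and 10.88, and its difference was 0.08 (SE 0.04). H19 siRNA array 3 stood above the other two, and without it the difference was 0.04. The other probe set read 10.74, 10.75 and 10.67 against 10.72, 10.77 and 10.86, so its groups overlapped, with a difference of 0.06 in a fit over all 35556 rows.

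At the branch of the prenyl chains the 2 enzymes lay on opposite sides. Fdps, farnesyl diphosphate synthase, on the way to squalene, read 11.51, 11.51 and 11.52 with control siRNA and 11.59, 11.62 and 11.59 with H19 siRNA. Its control arrays were within 0.01 of each other and all H19 siRNA arrays lay above them, with a difference of 0.09 (SE 0.03, 95% interval 0.01 to 0.16, limma adjusted p = 0.396). After median centring it was 0.06, still without overlap. Ggps1 extends farnesyl diphosphate to geranylgeranyl diphosphate, a lipid for protein prenylation outside the sterol branch. It read 9.80, 9.84 and 9.75 against 9.74, 9.64 and 9.76, and only H19 siRNA array 3 reached into the control range. Its difference was -0.09 (SE 0.04, limma adjusted p = 0.553), and -0.05 without H19 siRNA array 2.

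From squalene to lanosterol all 3 differences were positive. Fdft1, squalene synthase, read 12.34, 12.32 and 12.31 against 12.38, 12.42 and 12.43, without overlap, and differed by 0.08 (SE 0.03, limma adjusted p = 0.441). Its other probe set did not show this: it read 12.05, 12.06 and 12.06 against 12.05, 12.04 and 12.10, a difference of 0.006, and the mean of both differed by 0.0449. The pair of Fdft1 probe sets thus gave different values for the same gene, and which transcripts each detects was not tested. Sqle, squalene epoxidase and a control point of the pathway, read 11.51, 11.55 and 11.52 against 11.56, 11.58 and 11.61, without overlap, a difference of 0.06 that was 0.0339 after median centring. Lss, which closes the sterol rings, differed by 0.03 with overlapping groups, by 0.0175 without H19 siRNA array 1 and by 0.0087 after median centring.

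Of the 9 enzymes that turn lanosterol into cholesterol 8 were above control, and Lbr was below. Tm7sf2 and Lbr are related sterol reductases that act at the same step, and Lbr is also an inner nuclear membrane protein that tethers heterochromatin. Tm7sf2 read 8.45, 8.52 and 8.57 against 8.63, 8.61 and 8.57, with a difference of 0.09 (SE 0.04, limma adjusted p = 0.494). Lbr read 9.93, 9.88 and 9.85 against 9.80, 9.85 and 9.83, a difference of -0.06 (SE 0.04, limma adjusted p = 0.590). Neither gene had overlapping groups, but in both the nearest arrays of the 2 groups lay less than 0.01 apart.

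Ebp, a sterol isomerase, read 10.10, 10.03 and 10.14 against 10.19, 10.16 and 10.18, a difference of 0.09 (SE 0.04, limma adjusted p = 0.480). Nsdhl, which helps remove the methyl groups of lanosterol, read 11.88, 11.92 and 11.91 against 12.01, 11.93 and 11.98, a difference of 0.07. Hsd17b7, the ketoreductase of the same demethylation, read 9.61, 9.57 and 9.59 against 9.66, 9.61 and 9.73. Ebp and Nsdhl had separate groups, while in Hsd17b7 H19 siRNA array 2 lay just inside the control range, and its difference of 0.08 was 0.0425 without H19 siRNA array 3. Dhcr7, the reductase that yields cholesterol, read 9.31, 9.33 and 9.34 against 9.35, 9.37 and 9.40 and differed by 0.05 without overlap, or by 0.026 after median centring. Cyp51, the lanosterol demethylase, differed by 0.06, Sc5d, a desaturase, by 0.03, and Msmo1, a methyl oxidase, by 0.01, each with overlapping groups. Their sizes rested on single arrays. The difference of Cyp51 was 0.0263 without control siRNA array 3 and 0.109 without H19 siRNA array 2, and 0.1005 without control siRNA array 2. Without H19 siRNA array 1 or 3 and after median centring it was 0.0403, 0.0394 and 0.0406. That of Sc5d was 0.0133 without control siRNA array 3 and 0.0104 after median centring. The sign of Msmo1 turned after median centring (-0.00918) and without control siRNA array 1 or 3 or H19 siRNA array 3, over a range from -0.0163 to 0.0421. Stard4, a soluble sterol carrier, differed by 0.04 with overlapping groups, a value that each of the 6 arrays moved by more than 1.5 times when left out, to between 0.0122 and 0.0738.

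**Figure D2:**
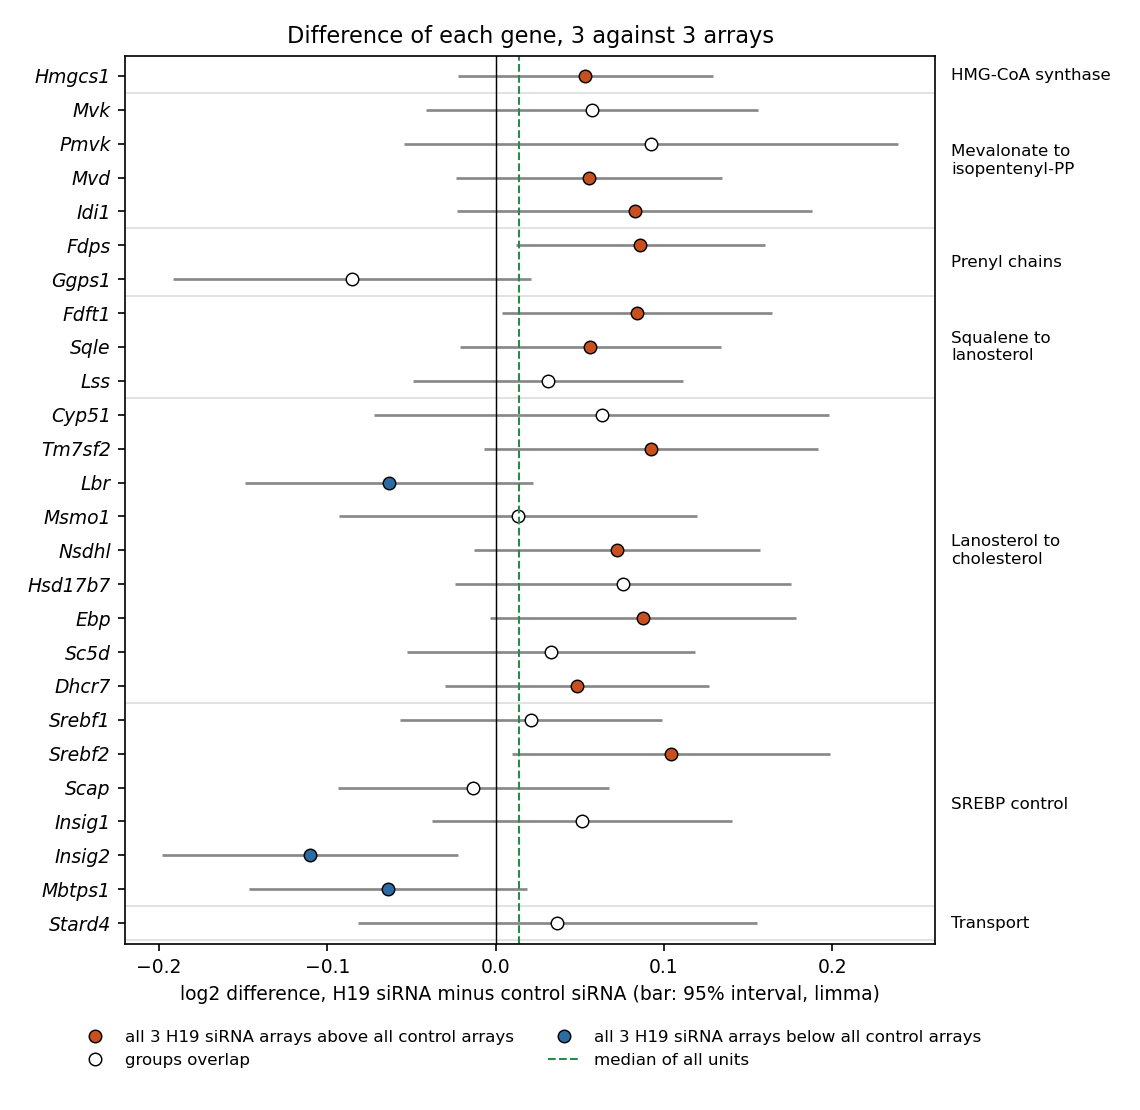
Difference of each gene, H19 siRNA minus control siRNA on the log2 scale, with 95% intervals from limma and genes grouped by role. Filled points mark genes whose groups did not overlap (11 above, 3 below), and the dashed line is the median of all units (0.01); 22 of the 26 intervals include 0.

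The 26 genes did not sit equally high on the 3 H19 siRNA arrays. Averaged over the genes as deviations from their 6-array means, the control arrays 1, 2 and 3 stood at -0.02, -0.02 and -0.02, and the H19 siRNA arrays at 0.03, -0.0069 and 0.03. All control arrays were thus below all H19 siRNA arrays, with array 2 of the H19 siRNA group much closer to the controls than the other two. The arrays separated the same way over all units, at -0.0086, -0.0108 and -0.0032 with control siRNA and 0.0057, 0.0080 and 0.0088 with H19 siRNA, with H19 siRNA array 1 nearest to the controls. H19 siRNA array 1 was the highest of the 6 arrays for 12 genes and array 3 for 9, but array 2 for only 1. After median centring the H19 siRNA array 2 stood at -0.04, below every control array (-0.02, 0.0047 and -0.0052), while arrays 1 and 3 stayed above them at 0.04 and 0.02. That array also had the highest median over all rows, 6.78. Without it the median difference of the members was 0.0675, and without H19 siRNA array 3 it was 0.0399.

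**Figure D3:**
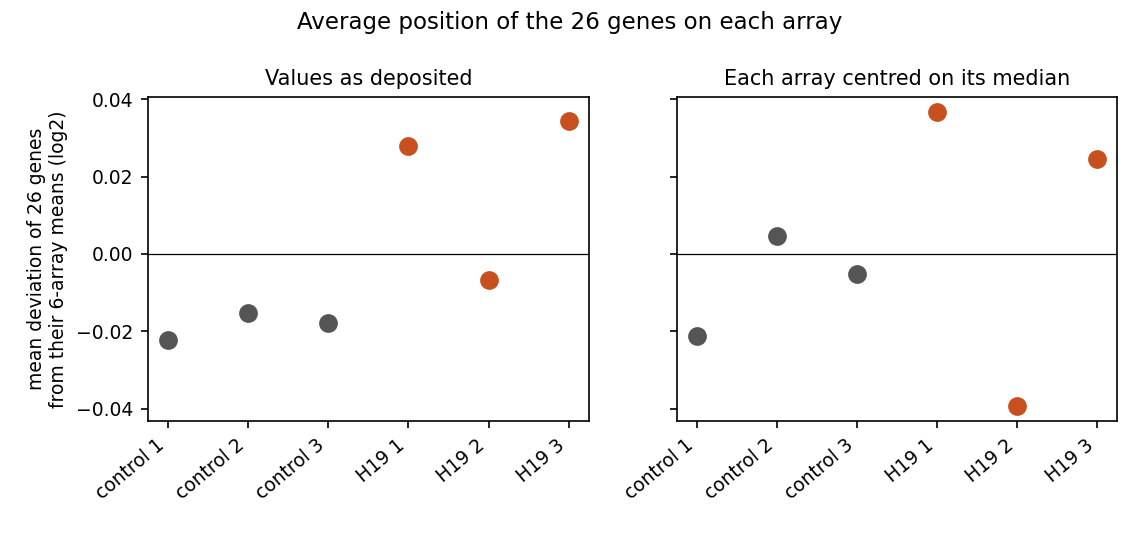
Mean deviation of the 26 genes from their 6-array means on each array (log2), on the left for values as deposited and on the right after centring each array on its median; grey points are control siRNA and orange points H19 siRNA arrays. H19 siRNA array 2 moves from -0.0069 to -0.04, below all control arrays, when arrays are centred.

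Most muscle markers also lay higher with H19 siRNA, and their part in the pattern of the cholesterol genes was not tested. Of 13 muscle markers 0 passed over all units and 11 had a positive difference, with a median of 0.10. At an unadjusted limma p under 0.05 there were 9 (8 higher, 1 lower), against 6.61% of all units higher and 4.25% lower. Those shares include dim units, whereas 12 of the 13 markers read above the median unit. Negative differences were those of Mef2c (-0.10, all 3 H19 siRNA arrays below all control arrays) and Myh3 (-0.03, overlapping groups). The mean level of the 13 markers was at most 11.01 on any control array and between 11.09 and 11.15 on the arrays of H19 siRNA. Cdh15, the cadherin of myoblasts, differed by 0.28 (limma adjusted p = 0.0519), Myog by 0.22, Myod1 by 0.23 and Mymk, the activator of myoblast fusion, by 0.19. These 4 differences exceeded that of every cholesterol gene. All 4 passed with an intensity trend and robust variance (limma adjusted p from 0.000118 to 0.00113) and with a filter at the median unit (0.00712 to 0.0308). Cdh15, Myog and Myod1 passed with a filter at the 30th percentile, and Cdh15 also after a second quantile normalisation (0.0405) and with array weights (0.0292). The 4 genes did not pass after median centring (limma adjusted p from 0.1099 to 0.3108), with differences of 0.1707 to 0.2552. They did not pass with the replicate number as a block either (0.3171 to 0.4551). Nor did they pass when any single array was left out, where Cdh15 lay between 0.07605 and 0.3039. Adipocyte markers had a median difference of 0.08 over 10 genes, and their mean level of 6.30 to 6.33 on the control arrays against 6.36 to 6.42 lay below the array medians. Of the adipocyte genes Fabp4 and Lep were dim, with 15.2% and 17.3% of units dimmer, whereas the regulators Pparg and Cebpa read above 74.8% and 53.5% of units and differed by 0.08 and -0.05. Macrophage and hepatocyte markers had medians of -0.01 and -0.02, with Cd68 at -0.19 and Ttr at 0.14 the smallest p of each.

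Other genes of sterol and lipid handling were read from the same fit, in 6 lists with 74 of 86 genes measured, and 0 of the 74 passed over all units. With an intensity trend and robust variance 435 of the 21559 units passed. Of the 74 genes 5 were among them (Gpam, Fads2 and Scd2 higher, Lipa and Nceh1 lower), and of the 26 cholesterol genes 0. Fatty acid synthesis genes, mostly SREBP1 targets, had 13 of 18 positive differences and a median of 0.03, and 4 had an unadjusted p under 0.05, all higher, against 6.61% of all units. Groups did not overlap for 6 of the 18 genes, all higher, against 10.5% of all units. Both shares include dim units, and the median standard error was 0.034 in this list and 0.051 over all units. Gpam, which starts glycerolipid synthesis, read 10.54, 10.55 and 10.55 against 10.71, 10.66 and 10.70, a difference of 0.14 (SE 0.03, limma adjusted p = 0.214). The desaturases Fads2 and Scd2 each differed by 0.11, and Acly, which makes cytosolic acetyl-CoA, by 0.09. These 4 genes had the smallest p of the list.

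Genes of sterol uptake and transport had a median of -0.0065, with 8 of 18 positive. Lipa, the lysosomal lipase that frees cholesterol from esters, read 11.21, 11.21 and 11.13 against 10.97, 10.93 and 11.03. It differed by -0.21 (SE 0.04, limma adjusted p = 0.166), and Tmem97, a sterol-regulated membrane protein, by -0.09. Nceh1, a cholesteryl ester hydrolase in the list of LXR genes, efflux and esters, read 10.33, 10.36 and 10.31 against 10.11, 10.13 and 10.10. Its difference of -0.22 (SE 0.03, limma adjusted p = 0.0796) was wider than that of any cholesterol gene, with all H19 siRNA arrays well below the controls. Abca1, the cholesterol efflux pump, differed by -0.15 and Mylip, the degrader of lipoprotein receptors, by 0.08, and neither passed (limma adjusted p = 0.305 and 0.468). Nr1h3, which encodes an LXR, differed by 0.03, the lipoprotein gene Apoe by 0.0099 and the sterol transporter gene Abcg1 by -0.00042. The 9 genes of that list had a median of 0.0099.

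The remaining lists had small medians. The 8 measured genes of sterol-regulated protein degradation had a median of 0.03, with the ubiquitin ligase Syvn1 at 0.09. Genes that use isoprenoids had a median of 0.02 over 13 genes, led by Fntb, a subunit of protein farnesyltransferase, at 0.15 (limma adjusted p = 0.240). Oxysterol and bile acid genes had a median of 0.04 over 8 genes. Cyp27a1 had the smallest p of that list, with a difference of 0.13 (SE 0.03, limma adjusted p = 0.240) and separate groups. It read 5.91, 5.93 and 5.93 against 6.03, 6.08 and 6.05 and was dim, with 32.2% of units dimmer. Ch25h, an interferon-inducible enzyme whose product blocks SREBP processing, read 8.951, 9.012 and 8.997 against 8.859, 8.861 and 9.035, with overlapping groups and a difference of -0.07. Against these, the median of 0.05 of the 26 cholesterol and SREBP genes was higher than that of each of the 6 lists, a difference that was not tested. Members and lists had been chosen with earlier results of these data known. The lists also hold dim genes such as Cyp27a1, whereas 0 of the 26 members were dimmer than the median unit.

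**Figure D4:**
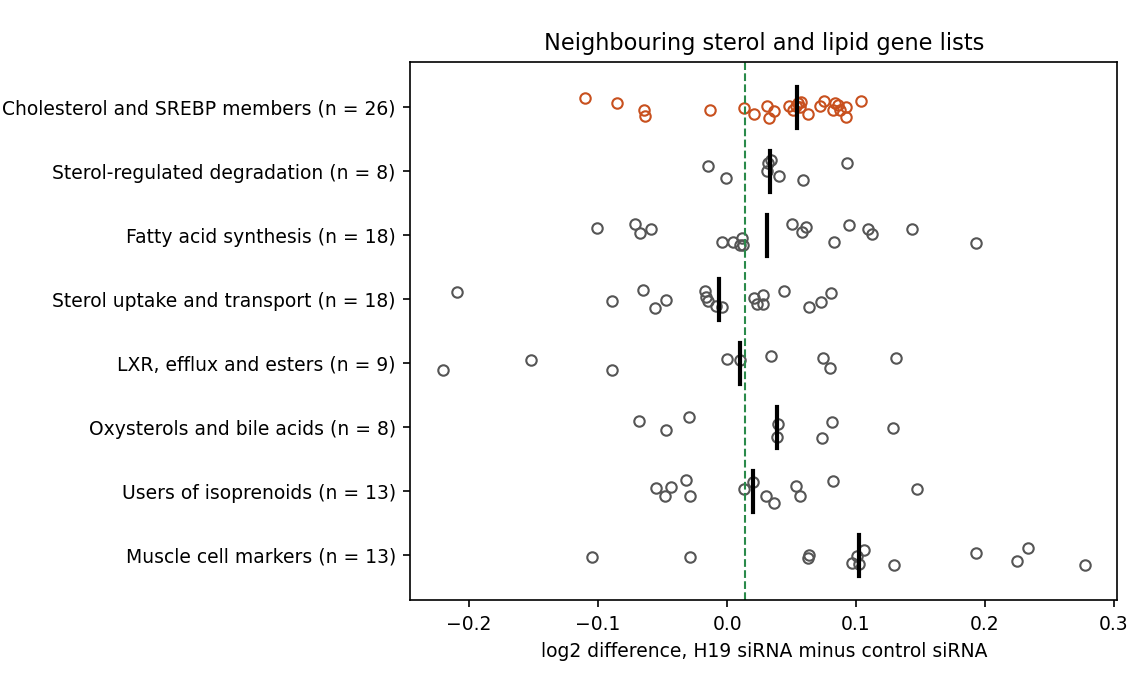
Differences of single genes (circles), H19 siRNA minus control siRNA on the log2 scale, in the 26 members, 6 neighbouring lists and the muscle markers; black bars are list medians and the dashed line the median of all units. The members have a median of 0.05 and the muscle markers of 0.10, and no circle passed an adjusted p of 0.05.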

How the data were processed

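RNA of 3 control siRNA and 3 H19 siRNA samples was measured on Affymetrix whole-transcript arrays. The deposited table holds log2 values of each probe set. Per the submitters' processing notes, the authors used RMA (Affymetrix Expression Console), whose background correction and probe summary compress changes of dim probe sets. The version is not given in the sources used here. Detection calls were not used, so dim probe sets were not marked, and the number of arrays limits the precision.

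Of 35556 rows 21789 had 1 gene symbol in GEO's platform annotation, 1621 had several and 12146 were not listed. Groups were compared with lmFit and eBayes of limma 3.58.1 (R 4.3.3), two-sided, without covariates or filter, with Benjamini-Hochberg adjustment over 21559 units. The fit was tested on simulated data. Differences are H19 siRNA minus control siRNA. Named are all members, the targeted transcript and up to 4 genes with the smallest p of each other list. Cebpa, Des, Mef2c, Myh3, Nr1h3, Apoe and Abcg1 were named after their values were seen. Members and lists were chosen with earlier results of these data known. Alternatives covered the variance model, filters, scaling, array weights, a replicate block, probe set choice and leaving out arrays.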

Additional observations from a re-analysis of the deposited data

How the results depend on the processing

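The count of members called was 0 under all 14 alternatives, and 358 of 364 differences of single members kept their direction. Those of Msmo1 turned after median centring (-0.00918) and when single arrays were left out (range -0.0163 to 0.0421), that of Srebf1 after median centring (-0.00149) and that of Scap without H19 siRNA replicate 3 (range -0.0299 to 0.000165). Between 19 and 21 members had positive differences. Median centring moved the median of the members to 0.0319, and leaving out single arrays gave 0.0399 to 0.0675. Of all units 435 passed with an intensity trend and robust variance, 111 and 266 with filters at the 30th percentile and the median, 70 with array weights and 1 to 21 with an array left out. In the other lists, examined under these settings after seeing the data, 5, 1 and 3 genes passed with the trend and the 2 filters. Nceh1 was among them in each case. With the replicate number as a block 3 units and 0 members passed, and the median of the members was 0.0543. Same-numbered arrays did not deviate together (r from -0.14 to -0.02 across units), so the numbers give no sign of pairing. The causes of these shifts were not tested.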
